A study of Xenopus tropicalis with 4 samples.

Results

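The genes described here are the intraflagellar and intracellular transport genes of Xenopus tropicalis. They were chosen by name, as the gene ids whose symbol starts with ift, bbs, kif, dync, dctn, arl or rab followed by a digit. Symbols were known only for 6622 ids on the authors' lists of differential genes. Genes of these families without a listed symbol could not enter. The rule found 91 of the 34177 gene ids in the count files. They were divided by known role into 17 ciliary core genes (ift, bbs and dync2), 14 cilium-linked genes, 7 mitotic kinesins and 53 genes of general intracellular transport. Earlier results of these data were known when the classes were chosen.

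Cilia are built and kept up by intraflagellar transport (IFT), in which trains of protein move cargo along the microtubules of the ciliary axoneme. The IFT-B complex travels with kinesin-2 toward the ciliary tip, the IFT-A complex travels back with dynein-2, and the BBSome links membrane proteins to the trains. Small GTPases of the ARL and RAB families steer vesicles and lipid-anchored proteins, some of them to the cilium and most of them between other membranes. The remaining kinesins and dynein-1 move organelles or serve the mitotic spindle. In the epidermis of Xenopus embryos, multiciliated cells (MCCs) carry many motile cilia.

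The RNA came from animal caps (ACs), explants of the prospective ectoderm, at the neurula stage NF16. Embryos had received a control morpholino (CoMo, 2 libraries) or the Suv4-20H1/2 morpholinos against suv4-20h1 and suv4-20h2 together (H1H2Mo, 2 libraries), so that all 4 libraries came from injected embryos. Morpholinos are antisense oligonucleotides, here of the kind that blocks translation, and suv4-20h1/2 encode the enzymes that write the di- and trimethyl marks on lysine 20 of histone H4. Each library was made from pooled ACs, without a transgene or a sorting step, and ribosomal RNA had been removed. The comparison of H1H2Mo with CoMo asks how depletion of these enzymes changes the transcripts of ACs. Such bulk libraries cannot tell apart fewer cells of a type and less RNA per cell.

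The libraries held 17027883, 47375336, 25877342 and 17093124 read pairs on genes for CoMo 1, CoMo 2, H1H2Mo 1 and H1H2Mo 2. Levels are given in this order of libraries as read counts relative to library size (CPM) after TMM normalization, and differences as the log2 fold change of H1H2Mo against CoMo with its standard error (SE). A gene was called at an adjusted p under 0.05, from the quasi-likelihood test of edgeR and adjusted over 19371 genes after Benjamini and Hochberg. Of these genes, 16.5% were called, 10.7% lower and 5.83% higher in H1H2Mo. Without CoMo 1 the share was 2.53%, and without CoMo 2 it was 5.95%. The transcripts of the morpholino targets do not report a block of translation: suv420h1 measured 109 and 123 against 89.5 and 82.6 CPM and kmt5c (the gene of SUV4-20H2) 47.8 and 58.3 against 148 and 172 CPM. Protein was not measured in these files.

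Markers of the cell types of ACs differed between the conditions. The 4 MCC markers tekt2, dnah9, tuba1a and tubb4b summed to 4175 and 5237 CPM in CoMo against 1279 and 1451 CPM in H1H2Mo. All 4 were called lower, and tubb4b alone held 3203 and 4375 against 1109 and 1187 CPM of these sums. The 3 MCC regulator genes foxj1, rfx2 and mci-like, given further below, were not called. Of these, mci-like had a higher estimate and the other 2 a lower one. The 2 markers of small secretory cells fell from 134 and 97.0 CPM to 4.29 and 3.41 CPM in sum, and both were called lower. The 3 ionocyte markers summed to 217 and 160.1 against 70.2 and 118 CPM with 1 called lower, and the 2 goblet cell markers to 1466 and 1284 against 2409 and 685 CPM with 1 called lower. The basal cell gene tp63 was lower (279 and 493 against 67.1 and 125 CPM) and the pluripotency gene pou5f3.1 was higher (16.1 and 25.5 against 295 and 163 CPM). Every marker that was called, and none of the others, came from the authors' list of differential genes for this same comparison, so these calls are a description. No marker was at 0 in any library. The part of these shifts in the results below was not tested.

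Whether a gene carries a symbol depends on the authors' lists of differential genes, which are shortened here, and 35 of the 91 genes were named from the list for this same comparison. Their calls are therefore a description: all 35 were called, as were 98.9% of all genes on that list. A lack of overlap between the groups is also a description for them. The groups overlapped in 0 of the 35 and in 9 of 1984 tested genes on that list, against 7841 of 19371 genes tested. The direction was not set by the listing. Of the 35 genes 28 were called lower and 7 higher, while 71% of all genes on the list were called lower and 27.9% higher. The largest adjusted p of a listed gene was 0.02 for dync2h1, and the smallest of a gene that was not listed was 0.0097 for rab39a. Of the 56 genes named from lists of other comparisons 54 could be tested, and 9 of them (16.7%) were called, 4 lower and 5 higher. Among all 4407 tested genes named in that way 12.6% were called, 6.35% lower and 6.26% higher, a share close to that of the transport genes. In all, 89 of the 91 genes were tested and 44 (49.4%) were called, with 32 lower and 12 higher. Among all 6391 tested genes with a symbol 39.4% were called, 26.4% lower and 13% higher. The other 2 genes were rab6a and rab11fip4. On the counted strand rab6a had no read in any library and rab11fip4 had 1 read, in CoMo 1. On the opposite strand rab6a had 6, 22, 30 and 5 reads in CoMo 1, CoMo 2, H1H2Mo 1 and H1H2Mo 2. Where the counted strand held no read, 3 counts set an upper limit of 0.183, 0.0684, 0.108 and 0.168 CPM in the 4 libraries.

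The ciliary core genes were lower in H1H2Mo almost throughout. Of 17 genes 14 were called lower, 1 was called higher and 2 were not called. The shares called lower and higher were 10.7% and 5.83% over all genes tested, and 26.4% and 13% over all genes with a symbol. The median log2 fold change was -1.86, against 0.05 over all genes tested. Summed over the class, the levels were 1436 and 1220 CPM in CoMo against 347 and 457 CPM in H1H2Mo. Both H1H2Mo libraries lay below both CoMo libraries for 16 of the 17 genes, and for 30.7% of all genes tested. Of the 14 genes that came from the list of this comparison 13 were called lower, beside 71% of all genes on that list. Of the 3 others 1 was called lower. Of all genes on that list 71.2% had both H1H2Mo libraries below both CoMo libraries. Without CoMo 1 the count of genes called lower was 1 instead of 14, with ift88 remaining, and without CoMo 2 it was 10. The median fold change stayed between -2.23 and -1.60 when any 1 library was left out.

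All 3 ift genes of the IFT-A complex, which carries trains back from the ciliary tip, were called lower. The level of ift122 was 208 and 193 CPM in CoMo against 35.6 and 54.7 CPM in H1H2Mo (-2.15 ± 0.35 (SE), adjusted p = 0.0013). Values for ift140 were 115 and 113 against 30.1 and 39.8 CPM (-1.71 ± 0.33 (SE), adjusted p = 0.0036). For ift43 they were 44.1 and 33.2 against 6.57 and 12.7 CPM (-2.01 ± 0.40 (SE), adjusted p = 0.0046). In each of these genes the higher H1H2Mo library reached less than the lower CoMo library, and H1H2Mo 1 was the lowest library. All 3 came from the list of this comparison, so the separation of the groups is a description.

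Of the 8 ift genes of the IFT-B complex, which moves cargo toward the tip, 7 were called lower. All 8 had a lower estimate, with a median of -1.92. The largest difference was that of ift88, a core subunit needed for cilium assembly, with 154 and 127 CPM in CoMo against 12.7 and 22.2 CPM in H1H2Mo (-3.01 ± 0.38 (SE), adjusted p = 0.00026). The level of ift81, which binds tubulin cargo together with ift74, was 141 and 103 against 27.9 and 29.4 CPM (-2.09 ± 0.34 (SE), adjusted p = 0.0012). For ift74 it was 82.0 and 56.6 against 14.7 and 26.9 CPM (-1.74 ± 0.38 (SE), adjusted p = 0.0078). These 3 genes, from the list of this comparison, were high in both CoMo libraries and low in both H1H2Mo libraries, without overlap. A share of the ift74 reads lay on the opposite strand and is described in the closing section. The subunit ift80 measured 151 and 96.4 against 20.1 and 40.0 CPM (-2.04 ± 0.40 (SE), adjusted p = 0.0042). The RAB-like subunit ift22 measured 97.3 and 64.1 against 14.1 and 27.0 CPM (-1.98 ± 0.39 (SE), adjusted p = 0.0044), and ift57 measured 67.8 and 54.4 against 13.7 and 20.1 CPM (-1.86 ± 0.35 (SE), adjusted p = 0.0032). H1H2Mo 1 was below H1H2Mo 2 in each of them, and both were below CoMo. Named from another comparison, the small GTPase ift27 also fell, with 36.7 and 21.7 against 11.0 and 9.44 CPM (-1.51 ± 0.38 (SE), adjusted p = 0.017), and here H1H2Mo 2 was the lower one.

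The subunit ift172, the largest of the IFT-B proteins, was not called. It measured 10.6 and 20.6 CPM in CoMo against 9.13 and 7.26 CPM in H1H2Mo (-0.93 ± 0.42 (SE), adjusted p = 0.16). The H1H2Mo libraries were below both CoMo libraries, but CoMo 1 lay closer to them than to CoMo 2. Over the alternatives its log2 fold change ran from -1.31 to -0.34 and its adjusted p from 0.083 to 0.77.

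Both dync2 genes, which encode chains of dynein-2, the motor of the return transport, were called lower. The heavy chain dync2h1 measured 197 and 233 CPM in CoMo against 93.0 and 88.8 CPM in H1H2Mo (-1.24 ± 0.33 (SE), adjusted p = 0.02). The light intermediate chain dync2li1 measured 22.3 and 14.4 against 3.35 and 5.53 CPM (-2.05 ± 0.44 (SE), adjusted p = 0.0066). The heavy chain was the only one of the pair in which H1H2Mo 2 was the lowest library, by a small margin. For the BBSome subunits the levels of bbs1 were 44.1 and 31.9 against 8.01 and 12.9 CPM (-1.86 ± 0.38 (SE), adjusted p = 0.0051) and those of bbs7 were 39.8 and 31.8 against 6.89 and 11.7 CPM (-1.95 ± 0.38 (SE), adjusted p = 0.0042). Groups did not overlap in any of these 4 genes, all of which came from the list of this comparison.

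The chaperonin-like genes bbs10 and bbs12, whose proteins in mammals help to assemble the BBSome, are given apart from the subunits. The level of bbs10 was 6.53 and 4.74 CPM in CoMo against 30.3 and 30.7 CPM in H1H2Mo (2.44 ± 0.38 (SE), adjusted p = 0.00085), and it was the only ciliary core gene called higher. Both H1H2Mo libraries held more than 30 CPM and both CoMo libraries less than 7 CPM. Its call held when any 1 of the 4 libraries was left out. The level of bbs12 was 19.8 and 21.6 against 10.3 and 17.6 CPM (-0.57 ± 0.38 (SE), adjusted p = 0.35), and it was not called, with H1H2Mo 2 close to the CoMo libraries. The third chaperonin-like gene, mkks, measured 34.9 and 34.7 against 25.0 and 38.5 CPM (-0.13 ± 0.34 (SE), adjusted p = 0.84) and was not called either. The difference between bbs10 and the subunits was not tested.

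**Figure D1:**
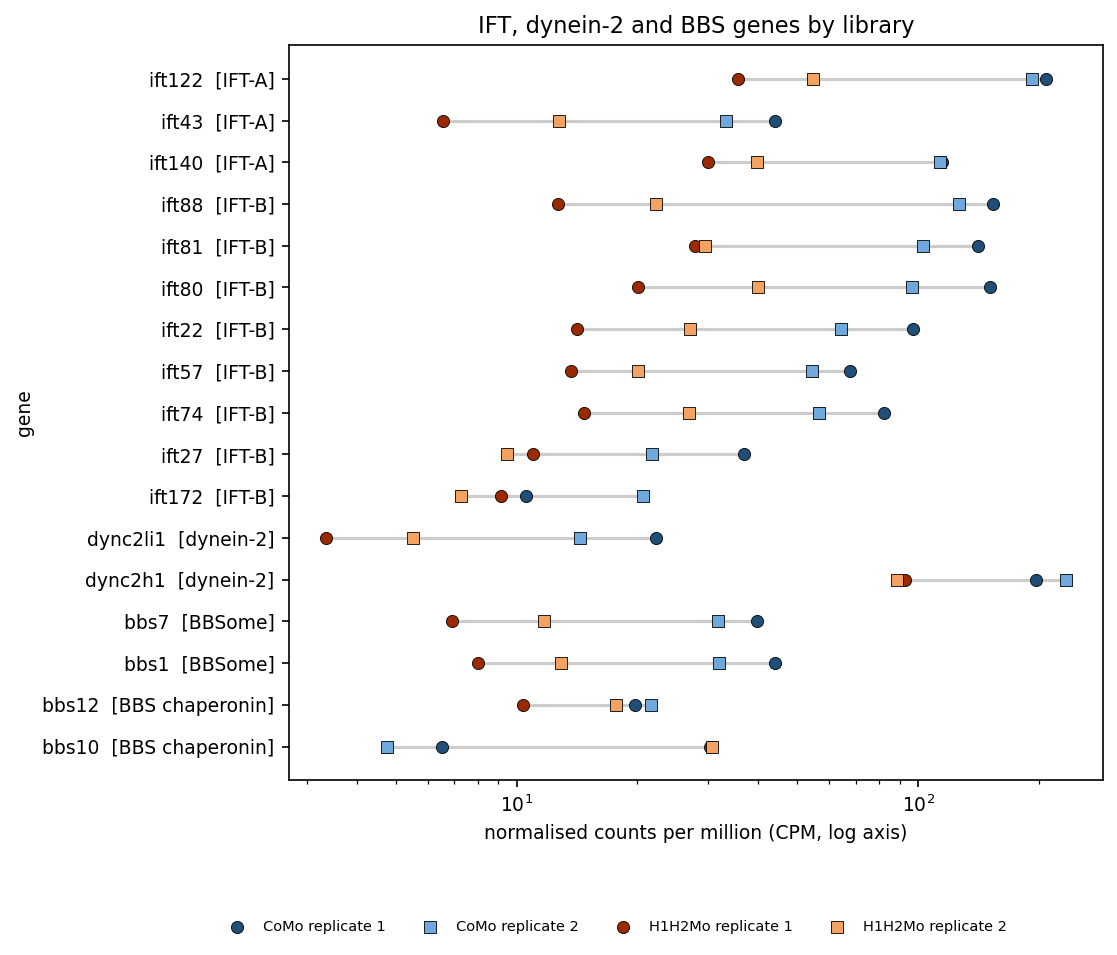
Level of each ciliary core gene in the 4 libraries, in normalised CPM on a log axis, with CoMo replicates in blue and H1H2Mo replicates in red and orange. Points of 16 genes lie lower in both H1H2Mo libraries than in both CoMo libraries, and bbs10 alone lies higher, at 30.3 and 30.7 CPM against 6.53 and 4.74 CPM.

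The cilium-linked genes, which are GTPases, their partners and kinesins with known work at cilia, were lower for the most part. The GTPase genes arl2 and rab8b, both called higher, were counted in general transport, although their partners arl2bp and rab3ip are in this class. Of 14 genes 9 were called lower, 1 was called higher and 4 were not called, with a median of -1.66. Over all genes tested 10.7% were called lower and 5.83% higher, and over all genes with a symbol 26.4% and 13%. Their summed levels were 1017 and 896 CPM in CoMo against 328 and 537 CPM in H1H2Mo. Of the 14, 8 came from the list of this comparison and all 8 were called lower, beside 71% of all genes on that list. Of the 6 others 1 was called lower and 1 higher. The median fold change of the class stayed between -1.90 and -1.50 when any 1 library was left out. Without CoMo 1 the count of genes called lower was 1, namely rab28, and without CoMo 2 it was 6.

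The largest difference among them was that of rab28, a GTPase that in Caenorhabditis elegans travels with IFT trains in a BBSome-dependent way. It measured 75.1 and 52.5 CPM in CoMo against 4.11 and 4.53 CPM in H1H2Mo (-3.88 ± 0.38 (SE), adjusted p = 6.4e-05). The H1H2Mo libraries were alike and lay more than 10-fold under CoMo. ARL3, which releases lipid-anchored proteins from their carriers inside the cilium, has a pair of genes in the frog. The level of arl3.1 was 202 and 149.5 against 28.6 and 51.3 CPM (-2.14 ± 0.38 (SE), adjusted p = 0.0022), and that of arl3.2 was 33.9 and 33.9 against 1.84 and 6.26 CPM (-3.08 ± 0.51 (SE), adjusted p = 0.0014). Both arl3 genes were high in CoMo only. Reads that fit more than 1 place in the genome were not counted for any gene, and how far the copies share sequence was not checked. The ARL2 and ARL3 binding protein arl2bp measured 114 and 89.9 against 17.9 and 28.3 CPM (-2.14 ± 0.36 (SE), adjusted p = 0.0014). The gene of RAB34, which in mouse cells acts early in the building of intracellular cilia, measured 28.0 and 22.2 against 4.73 and 6.54 CPM (-2.16 ± 0.39 (SE), adjusted p = 0.0024). Both genes had H1H2Mo 1 as the lowest library. Like rab28 and both arl3 genes, they came from the list of this comparison, so the separation of the groups is a description.

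The GTPase gene arl6, which recruits the BBSome to membranes, measured 42.0 and 37.0 CPM in CoMo against 13.9 and 14.2 CPM in H1H2Mo (-1.49 ± 0.33 (SE), adjusted p = 0.009), with little spread within either condition. The level of arl13b, the exchange factor of ARL3 on the ciliary membrane, was 85.9 and 81.5 against 31.5 and 50.3 CPM (-1.03 ± 0.34 (SE), adjusted p = 0.056). It was lower in both H1H2Mo libraries but not called, and DESeq2 did call it with an adjusted p of 0.048. The adjusted p of arl13b ran from 0.0041 to 0.38 over all alternatives. The opposite direction was seen for rab3ip, the exchange factor that activates RAB8 at the ciliary base. It measured 32.7 and 42.4 against 63.2 and 97.0 CPM (1.09 ± 0.34 (SE), adjusted p = 0.047), was called higher, and passed neither with the replicate numbers as a block (adjusted p = 0.052) nor with unstranded counts (0.051), within a range of 0.0025 to 0.45. Both H1H2Mo libraries of rab3ip were above CoMo.

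Of the 6 cilium-linked kinesins 3 were called lower and 3 were not called. The level of kif19, which in mouse trims the tips of motile cilia, was 39.3 and 29.0 CPM in CoMo against 5.16 and 9.33 CPM in H1H2Mo (-2.24 ± 0.40 (SE), adjusted p = 0.0024). For kif6, needed for ependymal cilia in mouse, it was 20.2 and 15.4 against 3.79 and 6.2 CPM (-1.84 ± 0.42 (SE), adjusted p = 0.0099). The level of kif9, a kinesin of motile axonemes, was 154 and 104 against 48.1 and 57.5 CPM (-1.29 ± 0.34 (SE), adjusted p = 0.021). These motors were high in both CoMo libraries, and H1H2Mo 1 was the lowest library for each. Among them kif19 and kif6 came from the list of this comparison.

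The kinesin-2 motor subunit kif3a, which drives IFT-B trains, was not called. It measured 108 and 126 CPM in CoMo against 39.2 and 98.6 CPM in H1H2Mo (-0.76 ± 0.41 (SE), adjusted p = 0.24). H1H2Mo 1 was far below CoMo, whereas H1H2Mo 2 lay only slightly below CoMo 1. Without H1H2Mo 2 the log2 fold change was -1.57 with an adjusted p of 0.0016, and over all alternatives the adjusted p ran from 0.0016 to 0.67. Its non-motor partner kifap3 measured 82.4 and 48.1 against 10.1 and 17.9 CPM (-2.22 ± 0.40 (SE), adjusted p = 0.0025) and was called lower. A difference between the partners was not tested. The kinesins kif24, which in human cells holds back cilium formation at the mother centriole, and kif7, a Hedgehog pathway kinesin of the ciliary tip, were not called. Their levels were 61.7 and 90.9 against 45.1 and 84.3 CPM (-0.24 ± 0.37 (SE), adjusted p = 0.72) and 21.1 and 22.1 against 20.6 and 22.4 CPM (-0.01 ± 0.33 (SE), adjusted p = 0.99). For kif7 all 4 libraries lay between 20.6 and 22.4 CPM, and the sign of its fold change turned with the scaling.

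**Figure D2:**
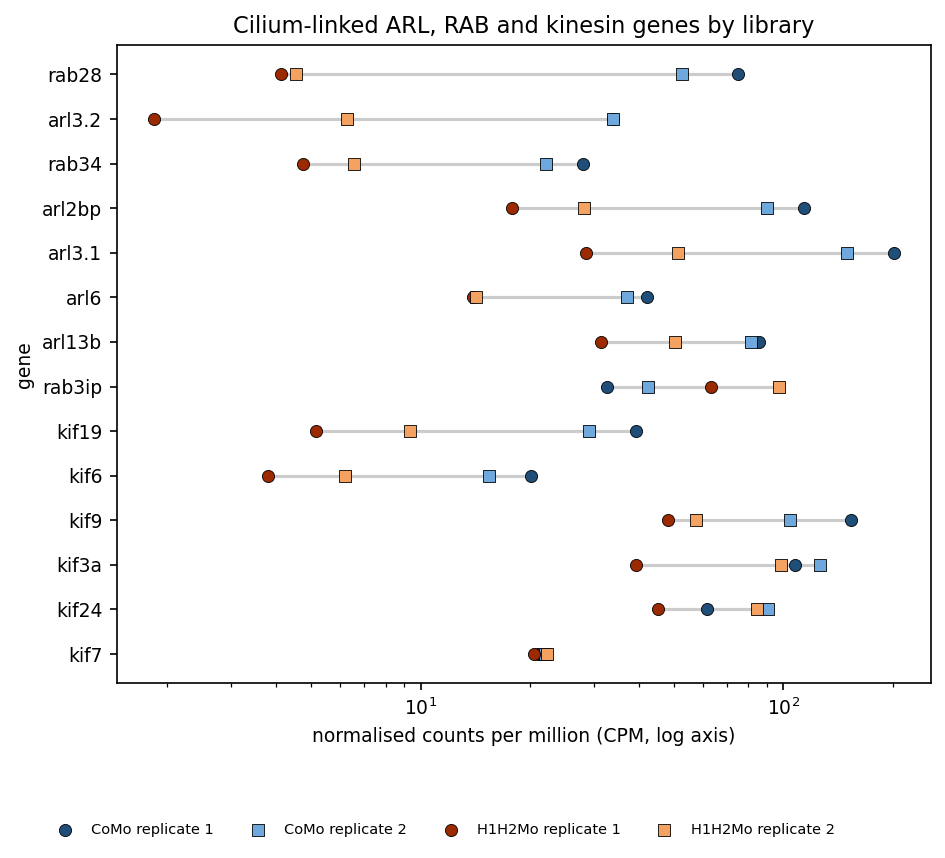
Level of each cilium-linked gene in the 4 libraries, in normalised CPM on a log axis, with CoMo replicates in blue and H1H2Mo replicates in red and orange. The gap is widest for rab28, with 75.1 and 52.5 CPM in CoMo against 4.11 and 4.53 CPM in H1H2Mo, whereas rab3ip lies higher in H1H2Mo and the points of kif7 fall together.

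Ciliary transport genes with other names were read in the same way, from a list of 16 ids made by role. Of these 15 were called lower, none was called higher and 1, mkks, was not called, with a median of -1.67. The share called lower was 10.7% over all genes tested and 26.4% over all genes with a symbol. As 13 of the 16 came from the list of this comparison, their calls are again a description. The 2 genes named from other comparisons and called were rabl2b, a RAB-like GTPase that joins IFT-B (-1.36 ± 0.38 (SE), adjusted p = 0.026), and rp2, which turns off ARL3 (-1.09 ± 0.33 (SE), adjusted p = 0.038). Both ids named wdr19 gave a log2 fold change near that of ift122, with -2.39 ± 0.35 and -2.38 ± 0.54, and wdr35, like wdr19 an IFT-A subunit, gave -1.50 ± 0.32. Among IFT-B subunits the values were -1.60 ± 0.35 for cluap1, -2.29 ± 0.45 for ttc26 and -1.52 ± 0.37 for ttc30a. The BBSome subunit ttc8 gave -1.70 ± 0.34, and the dynein-2 light chains tctex1d2 and dynlrb2 gave -1.62 ± 0.36 and -2.01 ± 0.35. The planar polarity effectors fuz and intu, which act in loading IFT proteins at the ciliary base, gave -1.64 ± 0.33 and -1.80 ± 0.35. The lipid-binding carrier pde6d, which hands cargo to ARL3, gave -2.21 ± 0.39. Lower levels were not particular to transport. Of 8 listed genes of the ciliary transition zone 6 were called lower and 0 higher, with a median of -1.84. The genes cc2d2a and nphp4 were not called, and nphp4 had a higher estimate. Calls of those from the list of this comparison are a description.

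The level of the ciliary genes also differed between replicates. H1H2Mo 1 was below H1H2Mo 2 in 14 of the 17 ciliary core genes and in all 14 cilium-linked genes, compared with 56.7% of all genes on the list of this comparison and 50.4% of all genes tested. CoMo 1 was above CoMo 2 in 14 of the 17 ciliary core genes, compared with 61.5% and 48%. When the libraries were taken by number, the median difference of the ciliary core was -2.45 for the first libraries and -1.38 for the second. The 3 MCC regulator genes were also lower in H1H2Mo 1 than in H1H2Mo 2, but CoMo 1 was below CoMo 2 in all 3. The level of foxj1, the regulator of motile cilium genes, was 96.9 and 125 against 40.7 and 80.5 CPM (-0.88 ± 0.38 (SE), adjusted p = 0.14), with H1H2Mo 1 the lowest. For rfx2, which works with foxj1, it was 336 and 413 against 205 and 362 CPM (-0.40 ± 0.38 (SE), adjusted p = 0.52). The MCC inducer named mci-like measured 58.8 and 84.2 against 93.7 and 286 CPM (1.40 ± 0.46 (SE), adjusted p = 0.057), with H1H2Mo 2 far above the other 3 libraries. With edgeR, none of the 3 regulators was called, 2 had an unadjusted p under 0.05, and DESeq2 called 1. Their part in the levels of the transport genes was not tested.

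The estimates of the mitotic kinesins lay on the other side, though 6 of the 7 genes were not called. Of 7 genes 1 (14.3%) was called higher, none was called lower, and the median log2 fold change was 0.72. The share called higher was 5.83% over all genes tested, 6.26% over genes named only from other lists and 13% over all genes with a symbol. Both H1H2Mo libraries were above both CoMo libraries in 6 of the 7, and in 28.8% of all genes tested. Summed levels were 651 and 784 CPM in CoMo against 936 and 1399 CPM in H1H2Mo, and H1H2Mo 2 was above H1H2Mo 1 in all 7. None of the 7 was named from the list of this comparison, and among all genes named only from other lists 31% lay above CoMo in both H1H2Mo libraries and 46.2% had H1H2Mo 1 below H1H2Mo 2. With edgeR 3 had an unadjusted p under 0.05, and DESeq2 also called 1.

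The one that passed was kif18b, which shortens astral microtubules, with 31.3 and 38.7 CPM in CoMo against 72.8 and 76.4 CPM in H1H2Mo (1.09 ± 0.32 (SE), adjusted p = 0.034). Next in size of the difference came kif22, a kinesin on chromosome arms, with 7.93 and 10.8 against 17.7 and 19.3 CPM (0.98 ± 0.37 (SE), adjusted p = 0.097), and kif11, which pushes spindle poles apart, with 98.8 and 109.7 against 147 and 211 CPM (0.78 ± 0.34 (SE), adjusted p = 0.14). The chromokinesin kif4a measured 119 and 138 against 184 and 239 CPM (0.72 ± 0.33 (SE), adjusted p = 0.17). In these 4 genes each H1H2Mo library exceeded each CoMo library. The kinesins of cytokinesis kif23, kif20a and kif20b measured 159 and 188 against 210.1 and 356 CPM (0.70 ± 0.36 (SE), adjusted p = 0.22), 158 and 192 against 176 and 363 CPM (0.62 ± 0.39 (SE), adjusted p = 0.32) and 76.5 and 106 against 127 and 134 CPM (0.52 ± 0.33 (SE), adjusted p = 0.32). For kif20a the groups overlapped, as H1H2Mo 1 lay between the CoMo libraries, and H1H2Mo 2 was the highest library in all 3. Without H1H2Mo 1, kif11, kif20a, kif23 and kif4a were called as well. Without CoMo 1 none of the 7 was called by edgeR and 0 had an unadjusted p under 0.05, and without CoMo 2 none was called and 2 had one. Among 17 other mitosis genes, a list made by role, 3 (17.6%) were called higher and none lower, with a median of 0.18. The share called higher was 5.83% over all genes tested and 13% over all genes with a symbol. Estimates were higher in 9 of the 17 and lower in 8, down to -0.74 for ccnb1.2, and the groups overlapped in 8. The called ones were aurka (1.13 ± 0.35, adjusted p = 0.043), bub1 (1.70 ± 0.34, adjusted p = 0.0045) and ccnb2 (1.61 ± 0.36, adjusted p = 0.0087), and H1H2Mo 1 was below H1H2Mo 2 in 16 of the 17. Of the called genes bub1 and ccnb2 came from the list of this comparison, so their calls are a description.

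**Figure D3:**
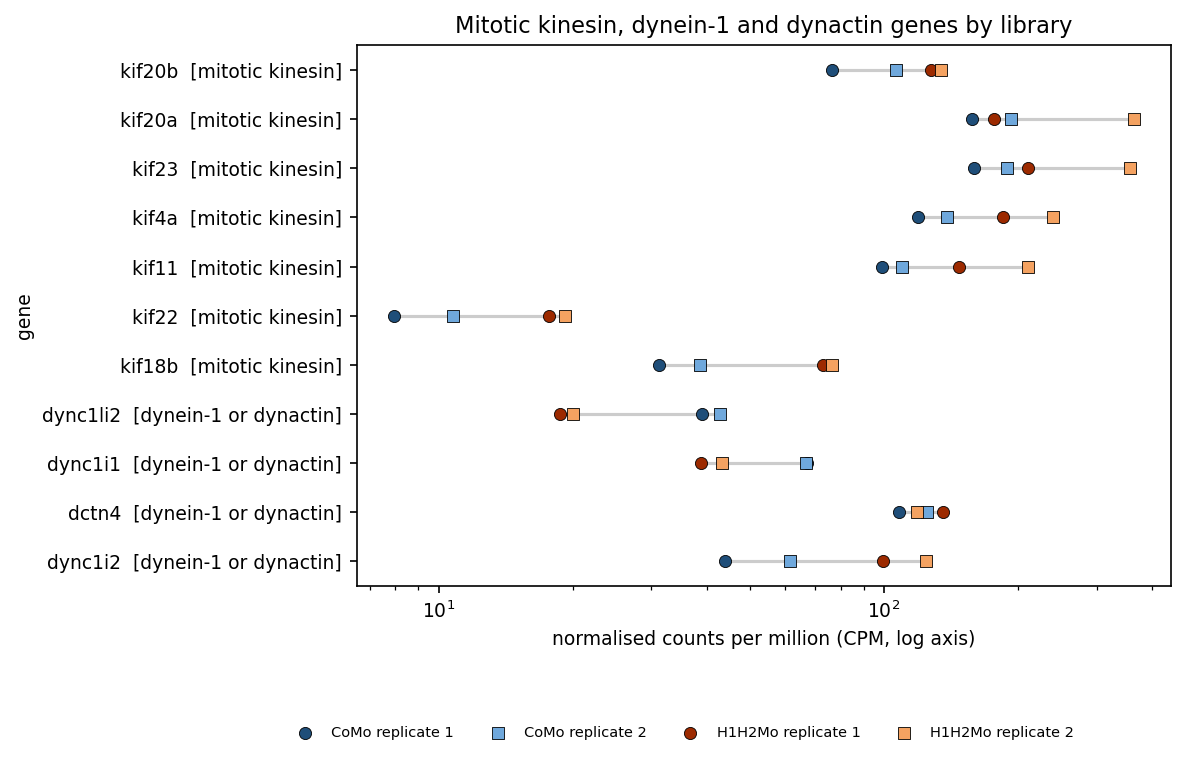
Level of each mitotic kinesin, dynein-1 and dynactin gene in the 4 libraries, in normalised CPM on a log axis, with CoMo replicates in blue and H1H2Mo replicates in red and orange. H1H2Mo replicate 2 is the highest library for all 7 mitotic kinesins, reaching 356 CPM for kif23 and 363 CPM for kif20a, whereas H1H2Mo replicate 1 of kif20a lies between the CoMo libraries.

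The general transport genes showed no common direction. Of 53 genes 51 were tested, and 9 were called lower, 9 higher and 33 neither, with a median log2 fold change of 0.17. The share called was 35.3%, against 16.5% over all genes tested and 39.4% over all genes with a symbol. Summed levels were 2726 and 2782 CPM in CoMo against 3044 and 2472 CPM in H1H2Mo, so that the H1H2Mo libraries lay on both sides of CoMo. Of the 13 genes that came from the list of this comparison 7 were called lower and 6 higher. Of the 38 others that were tested 2 were called lower and 3 higher. The share called among these others was 13.2%, close to the 12.6% of all genes named only from other lists. Without CoMo 1 the count called was 2, both of them ids of arl11, and without CoMo 2 it was 5. The median lay between -0.02 and 0.22 when any 1 library was left out.

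Dynein-1, which carries cargo toward microtubule minus ends in the cytoplasm, gave values on both sides. The intermediate chain dync1i2 was higher, with 44.0 and 61.6 CPM in CoMo against 99.3 and 124 CPM in H1H2Mo (1.08 ± 0.33 (SE), adjusted p = 0.043). The light intermediate chain dync1li2 was lower, with 39.0 and 42.9 against 18.7 and 20.0 CPM (-1.08 ± 0.33 (SE), adjusted p = 0.039). Neither had overlapping groups, and the call of dync1li2 was lost with the replicate numbers as a block (adjusted p = 0.070) and with upper-quartile scaling (0.053), within a range of 0.0068 to 0.28. The second intermediate chain gene dync1i1 measured 67.3 and 66.8 against 38.8 and 43.4 CPM (-0.71 ± 0.31 (SE), adjusted p = 0.15), and the dynactin subunit gene dctn4 measured 108 and 125 against 136 and 119 CPM (0.13 ± 0.32 (SE), adjusted p = 0.83). Neither was called, and the spread of dctn4 was similar in both conditions.

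Among genes called lower, the largest differences belonged to the pair of ids named arl11, an ARL GTPase. The id gene19126 measured 38.3 and 32.7 CPM in CoMo against 1.48 and 1.68 CPM in H1H2Mo (-4.49 ± 0.41 (SE), adjusted p = 5.1e-05), and the id gene32274 measured 15.01 and 5.95 against 0.325 and 0.503 CPM (-4.67 ± 0.64 (SE), adjusted p = 0.00045). In H1H2Mo the second id rested on 9 reads in each library, and how far the ids share sequence was not checked. The late endosome GTPase rab9b measured 34.2 and 25.3 against 5.16 and 7.26 CPM (-2.26 ± 0.39 (SE), adjusted p = 0.0017), rab36 measured 11.4 and 11.4 against 1.98 and 3.52 CPM (-2.06 ± 0.46 (SE), adjusted p = 0.0092), and the lysosome transport GTPase arl8b measured 14.5 and 20.6 against 5.84 and 5.92 CPM (-1.58 ± 0.39 (SE), adjusted p = 0.016). Each of these was low in both H1H2Mo libraries. Like both arl11 ids and rab11fip3 below, they came from the list of this comparison, so their separation is a description. The RAB11 partner rab11fip3, a protein of recycling endosomes, measured 26.1 and 23.7 against 10.1 and 3.07 CPM (-1.91 ± 0.49 (SE), adjusted p = 0.019), with H1H2Mo 2 lower than H1H2Mo 1.

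The paired genes rab39a and rab39b were rare transcripts. The level of rab39a was 4.76 and 3.67 CPM in CoMo against 0.649 and 0.112 CPM in H1H2Mo (-3.38 ± 0.77 (SE), adjusted p = 0.0097), from 18 and 2 reads in H1H2Mo. For rab39b it was 4.7 and 2.05 against 0.289 and 0.168 CPM (-3.81 ± 0.79 (SE), adjusted p = 0.0056), from 8 and 3 reads. Both were lower in each H1H2Mo library, and rab39b came from the list of this comparison. The call of rab39a depended on strand. With unstranded counts its log2 fold change was -0.88 and its adjusted p 0.30, within a range of 6.5e-06 to 0.30.

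Among genes called higher, the endosomal motor kif13a measured 10.6 and 9.46 CPM in CoMo against 38.8 and 45.4 CPM in H1H2Mo (2.07 ± 0.34 (SE), adjusted p = 0.0015), and rab40c, which belongs to a ubiquitin ligase, measured 12.4 and 15.9 against 85.2 and 46.9 CPM (2.22 ± 0.38 (SE), adjusted p = 0.0017). The tubulin cofactor GTPase arl2 measured 5.31 and 3.65 against 16.6 and 16.3 CPM (1.88 ± 0.41 (SE), adjusted p = 0.0073). All 3 were low in CoMo, and their H1H2Mo libraries lay more than 2-fold above either CoMo library. They came from the list of this comparison, so this separation is a description. The endosomal GTPase rab21 measured 6.65 and 7.37 against 18.8 and 24.7 CPM (1.63 ± 0.38 (SE), adjusted p = 0.01), the Golgi GTPase rab33b 19.3 and 20.3 against 45.2 and 60.7 CPM (1.42 ± 0.33 (SE), adjusted p = 0.011), and the exocytic GTPase rab8b 13.2 and 13.5 against 24.6 and 47.6 CPM (1.43 ± 0.39 (SE), adjusted p = 0.023). In this set H1H2Mo 2 was the highest library. The genes rab21 and rab33b, and rab44 given below, came from the list of this comparison. The RAB8 gene rab8b was counted in general transport, although rab3ip, which activates RAB8, was counted as cilium-linked. Likewise arl2 was counted in general transport and its binding protein gene arl2bp as cilium-linked. The gene arl6ip6 measured 40.8 and 31.2 against 83.4 and 96.4 CPM (1.32 ± 0.33 (SE), adjusted p = 0.015), again without overlap. The value of rab44 rested on 1 library, as it measured 1.34 and 2.49 against 30.7 and 3.02 CPM (3.11 ± 0.80 (SE), adjusted p = 0.019), and without H1H2Mo 1 its log2 fold change was 0.63 with an adjusted p of 0.58, within a range of 6.9e-09 to 0.58.

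**Figure D4:**
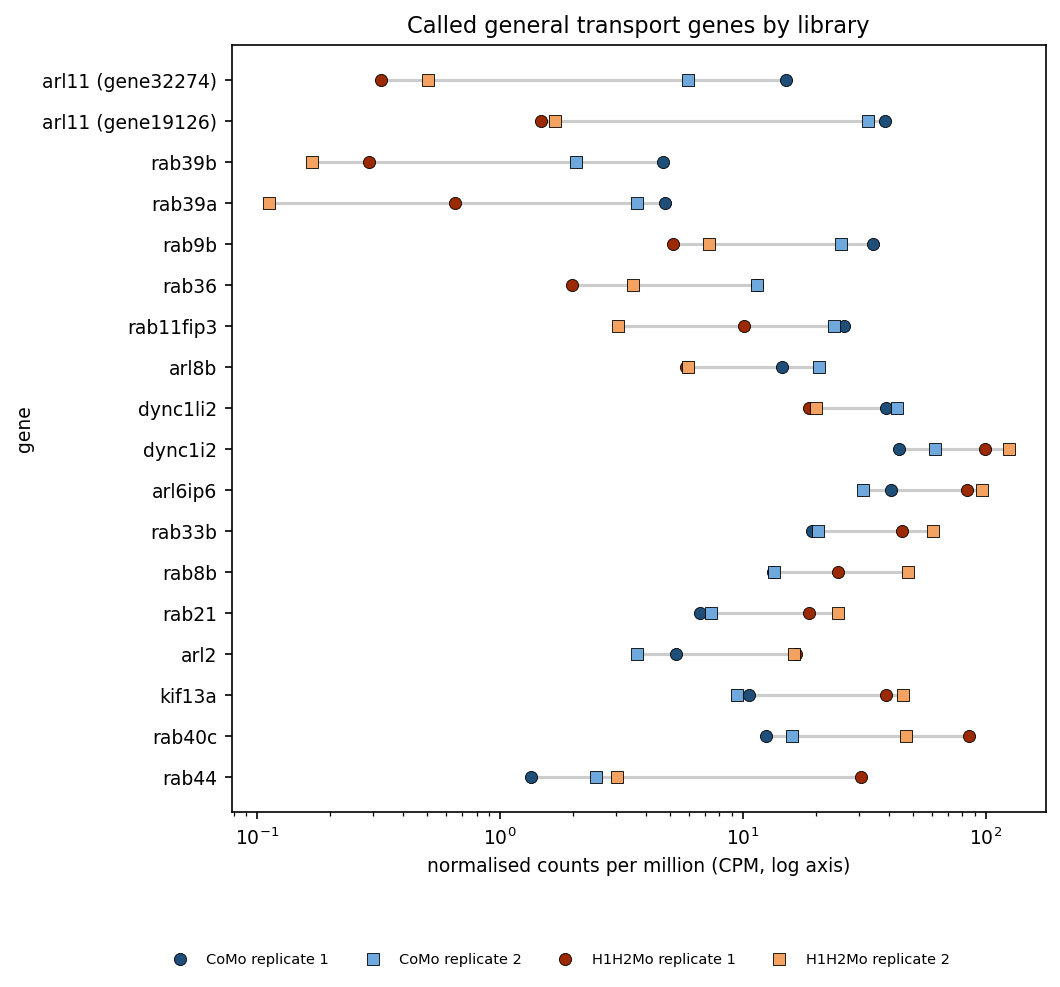
Level of the 18 general transport ids that were called, in the 4 libraries, in normalised CPM on a log axis, with CoMo replicates in blue and H1H2Mo replicates in red and orange. The 9 upper ids lie lower in H1H2Mo and the 9 lower ids lie higher, and for rab44 only H1H2Mo replicate 1, at 30.7 CPM, stands apart.

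The 3 uncalled general transport genes with the highest CPM, which is not corrected for gene length, were rab25, rab27a and arl1. The recycling GTPase rab25, found in epithelia, measured 410.3 and 358 CPM in CoMo against 231 and 169 CPM in H1H2Mo (-0.94 ± 0.35 (SE), adjusted p = 0.087). The secretory GTPase rab27a measured 319 and 339.9 against 426 and 224 CPM (-0.02 ± 0.38 (SE), adjusted p = 0.98), with the H1H2Mo libraries as the highest and the lowest of the 4. The Golgi GTPase arl1 measured 292 and 289 against 260.0 and 198 CPM (-0.34 ± 0.34 (SE), adjusted p = 0.55). Over the 33 uncalled general genes the log2 fold change ran from -2.01 to 1.00 and the adjusted p from 0.069 to 0.98. The groups overlapped in 12 of them, H1H2Mo lay below CoMo in 10 and above it in 11. Over all genes tested 30.7% lay below and 28.8% above, shares close to those of the uncalled general genes.

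**Figure D5:**
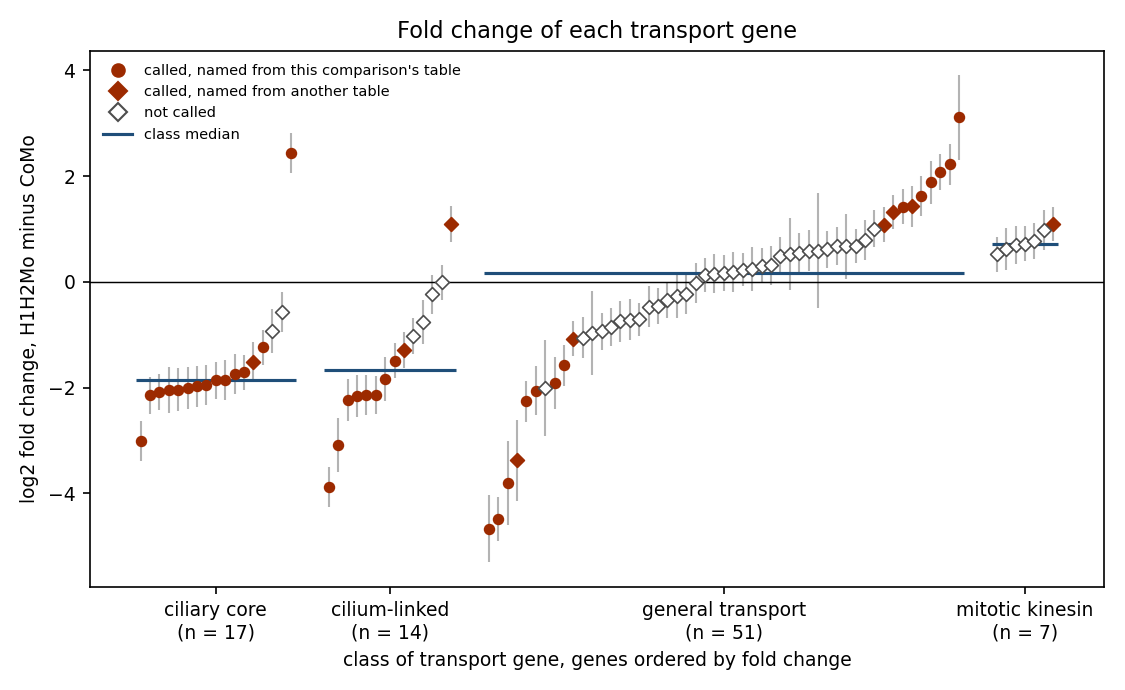
Log2 fold change of H1H2Mo against CoMo for the 89 tested transport genes, ordered within each class, with bars of 1 SE and a line at each class median. Filled symbols were called, circles are genes named from the list of this comparison and filled diamonds from another list, and medians are -1.86, -1.66, 0.17 and 0.72 for the ciliary core, cilium-linked, general and mitotic genes.

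Set side by side, the classes differed in direction as counts. Genes called lower made up 14 of 17 in the ciliary core, 9 of 14 among the cilium-linked genes, 9 of 51 in general transport and 0 of 7 among the mitotic kinesins. The share was 10.7% over all genes tested and 26.4% over all genes with a symbol, so that general transport lay under the share of named genes. The difference between classes was not tested, since genes are not replicates and the naming of genes differed between the classes. Of the 33 other RAB genes 31 were tested, with 5 called lower and 5 higher. Of the 12 other ARL genes 3 were called lower and 2 higher. No subunit of IFT-A, IFT-B, dynein-2 or the BBSome named here was called higher. RefSeq lists 14 ift and 8 bbs symbols for this species, of which 11 and 4 were named here. Its kif, rab and arl symbols numbered 37, 70 and 29, against 17, 36 and 16 here. Of the 170 RefSeq symbols that match the naming rule, 88 were among the genes described. The symbols bbs2, bbs4, bbs5, bbs9, ift20, ift46 and ift52 were not analysed here.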

How the data were processed

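RNA-seq counts were analysed from 4 libraries of X. tropicalis ACs at NF16, 2 CoMo and 2 H1H2Mo, grouped by the sample labels. Per the labels, RNA was depleted of ribosomal RNA and made into directional libraries. The authors aligned read pairs to the X. tropicalis genome v9.1 with STAR 2.7.1a, after converting its annotation with gffread 2.2.1, and deposited the counts per gene that STAR returned, without normalization, for either strand and for each strand. Reverse-strand counts were used, since 97.5% to 98.2% of stranded reads lay there. A row that names no gene held 0.0675% to 0.242% of them and was left out. The series text gives 2 biological replicates per condition. The p-values measure the spread between these libraries, and counting intervals cover counting error only.

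Counts were normalised by TMM and tested with edgeR 4.0.16 in R 4.3.3 (quasi-likelihood test, at least 1 read in 75% of samples, Benjamini-Hochberg adjustment over 19371 genes, called under 0.05). The SE is the size of the fold change (log2) over the root of its F value. The script was tested on simulated data. Alternatives were DESeq2 1.42.0, RLE and upper-quartile scaling, other filters, unstranded counts, libraries thinned to the smallest depth, a threshold of 0.01, blocks by replicate number or by crossed pairs, and leaving out each library. With 1 library left in a condition, it is assumed to vary like the other condition.

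The count files hold ids without names. Symbols were taken from the study's lists of differential genes, which were shortened here, and chromosomes or sequences were not used here. Only their names were used, not their fold changes or p-values. The genes, classes and marker lists were chosen with earlier results of these data known. Named with values are all ciliary core, cilium-linked, mitotic and dynein-1 or dynactin genes, every other called gene, and the 3 uncalled general genes with the highest CPM. From the gene lists, the called genes of other ciliary transport and of mitosis are named.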

Additional observations from a re-analysis of the deposited data

Results flagged for a closer look

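Forward-strand reads were not used in the comparison, and their share stood out in H1H2Mo for 2 of the transport genes. For ift74 the forward strand held 29.3% of the stranded reads in H1H2Mo 1 and 25.4% in H1H2Mo 2, against 9.86% in CoMo 1 and 10.4% in CoMo 2. The forward reads numbered 147, 288, 169 and 164 in CoMo 1, CoMo 2, H1H2Mo 1 and H1H2Mo 2. The reverse reads of ift74 numbered 1344, 2481, 408 and 481 in the same order. For rab39a the forward share was 83.5% in H1H2Mo 1 and 95.5% in H1H2Mo 2, against 28.4% and 23.0% in CoMo. These were 31, 48, 91 and 42 reads, beside 78, 161, 18 and 2 reverse reads. The forward share also rises where reverse reads fall, and both genes were called lower on the reverse strand. A higher share alone does not show more forward reads. Both genes were listed because the share was at least 20% in both H1H2Mo libraries, above both CoMo libraries and backed by at least 10 reads, and the differences were not tested.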

How the results depend on the processing

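None of the 44 called genes changed direction in any of 9 alternative fits with all libraries or 4 without 1 library, and 3 (dync1li2, rab3ip and rab39a) lost the call at 0.05 in a fit with all libraries. With the replicate number as a block, 42 transport genes and 3280 of all genes were called (44 and 3197 without it). Deviations of same-numbered libraries had a weak negative correlation over 12537 genes (-0.207). With 2 libraries a condition this cannot show whether the numbers mark pairs, and the main fit used no block. With crossed pairs 51 transport genes, 4844 of all genes and 2 mitotic kinesins were called. At an adjusted p under 0.01, 1542 of all genes, 30 transport genes, 9 general transport genes and 0 mitotic kinesins were called (3 had an unadjusted p under 0.05 in edgeR, and DESeq2 called 0 at that threshold). When 1 library was left out, the calls ranged from 490 to 4376 for all genes, 5 to 53 for transport genes, 1 to 14 for the ciliary core lower, 1 to 11 for the cilium-linked genes lower, 2 to 23 for general transport and 0 to 5 for mitotic kinesins higher. The fewest calls came without CoMo 1. The median of the mitotic kinesins then ran from 0.50 to 1.03, and that of the ciliary core from -2.23 to -1.60. Only uncalled genes changed sign. The log2 fold change of kif7 was 0.01 with RLE, 0.07 with upper-quartile scaling, 0.01 with DESeq2, 0.03 with edgeR's expression filter and 0.03 after thinning. For rab27a it was 0.07 with upper-quartile scaling and 0.03 with edgeR's expression filter. Without 1 library the ranges were -0.07 to 0.05 for kif7, -0.56 to 0.37 for rab27a, -0.76 to 0.14 for kif24, -0.03 to 0.43 for rab4b, -0.06 to 0.44 for arl6ip5, -0.49 to 0.72 for rab3gap2, -0.26 to 0.71 for rab11fip1, -0.25 to 0.86 for arl4a, -1.10 to 0.27 for rab3d and -1.19 to 0.01 for arl4c. The cause of these changes was not tested. The spread between only 2 replicates a condition and the levels under the floor of 3 counts limit what can be called.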
